A study of Mus musculus with 8 samples.

Results

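The regions described here carried an APOBEC2 peak early in muscle differentiation and none later. Chromatin of C2C12 cells, a mouse myoblast line, was precipitated with rabbit polyclonal antibodies to APOBEC2 and the recovered DNA sequenced (ChIP-seq). There were 3 immunoprecipitated libraries and 1 input at 14 h after differentiation was induced with medium of 2% horse serum, and the same at 34 h. The earlier time is uncertain: 14 h is the value in the titles and characteristics, but the growth protocol names 24 h. The names of all lists carry the tag GFPsh, which the labels used here do not explain, and neither a control antibody nor cells lacking APOBEC2 entered these comparisons. The labels do not say that replicates were separate cultures, so the tests measure only the spread between these samples. The lists hold no expression values, so the labelled cell line was not checked against marker genes.

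Peaks of the 6 immunoprecipitated libraries on chromosomes 1 to 19, X and Y were merged wherever they overlapped by at least 1 bp, which gave 5567 regions. A peak at 14 h was present in 1379 of them. The 257 regions that held a peak of at least 1 library of 14 h and of no library of 34 h were selected on these measured calls, and are called 14 h only. They made up 18.6% of the regions with a 14 h peak, the other 1122 holding peaks of both times, and 4188 further regions had peaks of 34 h only. Since peak presence chose them, presence, fold and significance are given as a description, with no test.

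APOBEC2 belongs to the AID/APOBEC family, whose best-known members deaminate cytosine in DNA or RNA. It is found mainly in skeletal muscle and heart, and no substrate is generally agreed on for it. C2C12 myoblasts moved to low serum leave the cell cycle and fuse into myotubes. During that exit, E2F factors at cell cycle promoters pass under the control of the pocket proteins of the retinoblastoma family, while the CHR element serves the MuvB complexes and the CCAAT box binds NF-Y at many CpG-rich promoters.

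Most 14 h only regions lay at gene starts. To show what such promoters look like, 5 stretches of 150 bases before an annotated start are printed, each holding a summit of a 14 h only peak. The sequences are RefSeq's on GRCm38.p6, 5′ to 3′ on the strand of the gene, and capitals mark letters of 3 motifs searched on both strands: TTCCCGC for E2F, CCAAT for NF-Y and TTTGAA for the CHR. Smpd4 and Dop1a were chosen because they hold the E2F letters, Klf11 because it holds CCAAT letters (read here as ATTGG), and Meaf6 and Lsm8, which hold none of the 3 in the printed stretch, because they had high folds. Meaf6 lies at chr4:125084963-125085112 on the plus strand and held the summits of all 3 libraries of 14 h. Klf11 (chr12:24651221-24651370), Lsm8 (chr6:18848485-18848634), Smpd4 (chr16:17619204-17619353) and Dop1a (chr9:86466991-86467140) are also on the plus strand and had peaks in 2 libraries. A printed stretch can run past the called region, and the leftmost ATTGG of Klf11 lies just before its region.
Meaf6: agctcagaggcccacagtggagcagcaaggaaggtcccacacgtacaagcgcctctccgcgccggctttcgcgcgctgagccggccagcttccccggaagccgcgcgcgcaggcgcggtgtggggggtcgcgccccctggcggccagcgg
Klf11: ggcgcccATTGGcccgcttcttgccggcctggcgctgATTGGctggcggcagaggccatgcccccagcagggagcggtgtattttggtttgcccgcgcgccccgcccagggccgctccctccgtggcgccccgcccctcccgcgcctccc
Lsm8: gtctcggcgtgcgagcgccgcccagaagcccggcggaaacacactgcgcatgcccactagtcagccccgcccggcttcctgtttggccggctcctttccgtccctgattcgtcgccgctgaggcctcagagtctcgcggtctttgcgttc
Smpd4: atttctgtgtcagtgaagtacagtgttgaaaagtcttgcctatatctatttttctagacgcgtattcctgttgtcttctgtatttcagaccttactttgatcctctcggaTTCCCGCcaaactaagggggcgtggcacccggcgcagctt
Dop1a: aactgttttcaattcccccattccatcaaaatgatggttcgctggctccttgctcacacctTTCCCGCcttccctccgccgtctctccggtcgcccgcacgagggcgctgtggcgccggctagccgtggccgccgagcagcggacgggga

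The regions fell into 3 classes by the number of 14 h libraries with a peak. Of the 257, 210 had a peak in 1 library, 39 in 2 and 8 in all 3. Of all regions with a peak in 1, 2 or 3 libraries of 14 h, these were 38.5%, 14.2% and 1.43%, so lack of a 34 h peak was rarest where all 3 libraries had called the site. One library carried most of them: replicate 2, with the longest list, held 168 of the 210 regions of 1 library, against 24 for replicate 1 and 18 for replicate 3. Among regions of 2 libraries, 29 joined replicates 2 and 3, 8 joined replicates 1 and 2, and 2 joined replicates 1 and 3. Without 14 h replicate 2, 90 regions met the rule.

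The count depended as much on the 34 h lists. These held 2202, 5019 and 1052 peaks, against 765, 1320 and 794 at 14 h. Without 34 h replicate 2, the longest list, 528 regions met the rule and 42 of them had peaks in all 3 libraries of 14 h. When every library gave the same number of peaks, the highest by p-value, 366 regions met the rule and 61 were in all 3 libraries. The 8 regions of 3 libraries were among those kept in each of 12 such changes of lists and overlap rules. Most of these outcomes were fixed in advance, so they are no test of the 8. Leaving out a library cannot remove a region found in every 14 h library and no 34 h library. The 8 also had −log10 q of at least 5.89, and none lay within 1 kb of a 34 h peak.

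Regions of 14 h only were weaker than those of both times within the same libraries. The fold, which the authors' peak caller gives as a ratio of signal over local background, had medians of 6.48, 6.34 and 6.63 for 14 h only peaks in replicates 1, 2 and 3, against 8.33, 9.02 and 8.69 for peaks of both times. Fold and p-value together fix the fragments under each summit, and these had medians of 13, 15 and 14 for 14 h only peaks, against 24, 27 and 25 for peaks of both times. The 14 h only peak of highest fold ranked 295, 283 and 232 by fold in its list, so the upper part of each list, ordered by fold, held none. Of the peaks in the 34 h lists of replicates 1, 2 and 3, 61.8%, 65.2% and 60.1% had a fold below 6.41, the median of all 14 h only peaks. Folds ran lower at 34 h, however. Peaks of both times had medians of 7.07, 7.42 and 6.56 in the 34 h libraries, against 8.33, 9.02 and 8.69 at 14 h. The shares below 6.41 therefore do not show that the 34 h lists reached sites as weak as the 14 h only ones, which was not tested. A missing 34 h peak shows only that none was called at the lists' own thresholds, not that the site was unbound.

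The share of 14 h peaks with no 34 h peak went down with fold, as the plot by fold range shows. It was 30.8% of peaks with a fold of 5 to 6, 24.4% at 6 to 7, 15.2% at 7 to 8, 7.47% at 8 to 10, 2.67% at 10 to 13 and 0.282% at 13 and over. Below a fold of 5 it was 6.17%, so the lowest range did not follow the trend. The 14 h only region of lowest fold, chr9:3033102-3033263, had a fold of 2.00 on 140 fragments, the most of any.

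**Figure D1:**
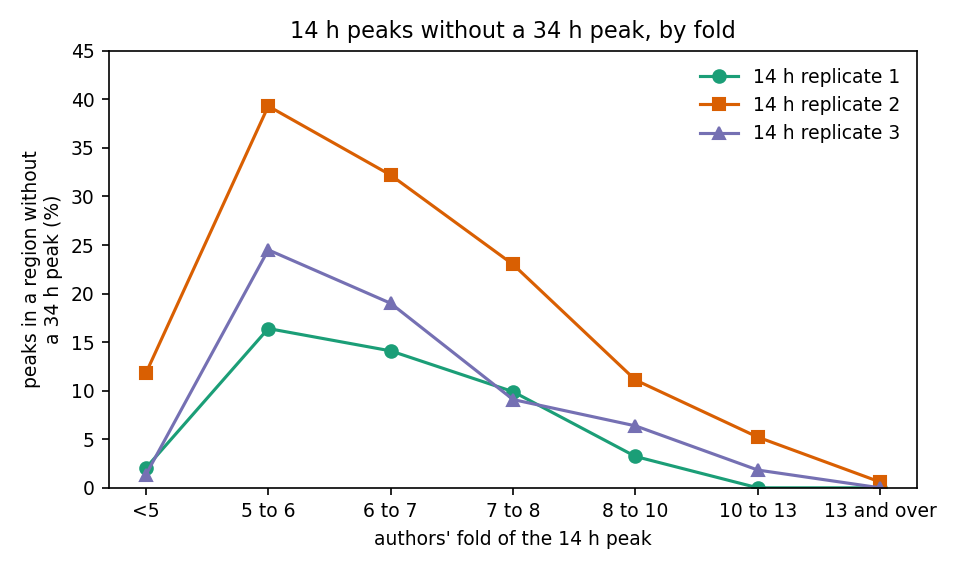
Percent of the peaks of each 14 h library that lie in a region without a 34 h peak (y axis), by the authors' fold of the peak (x axis, ranges); each line is 1 library. In all 3 libraries the share is highest at a fold of 5 to 6 (39.3% in replicate 2) and is 0.597% or less at 13 and over.

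The 8 regions present in every 14 h library were a mixed group, and 5 of them lay inside genes away from any boundary. Bcl7a encodes a subunit of the BAF chromatin remodelling complexes. Its region, chr5:123345177-123345479, is within 1 kb of a boundary of Bcl7a and of the lncRNA Gm15860, and had folds of 8.89, 13.2 and 8.03 on 16, 27 and 15 fragments in replicates 1, 2 and 3. Meaf6, a shared subunit of the NuA4, HBO1 and MOZ histone acetyltransferase complexes, had folds of 9.47, 11.4 and 6.34 at its start (chr4:125084959-125085296). These were the only 2 of the 8 within 1 kb of a protein-coding gene boundary, and both genes encode chromatin proteins. The nearest 34 h peak was 49190 bp from the Bcl7a region and 126213 bp from that of Meaf6.

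Zfp423 encodes a zinc finger factor that works with SMADs in BMP signalling and marks cells committed to fat. Its region, chr8:87958715-87958984, lies inside the gene 3069 bp from the nearer boundary and 611 bp from an annotated inner start, with folds of 8.02, 11.1 and 11.9 on 17, 26 and 26 fragments. Rcc2, which acts at centromeres in mitosis, had folds of 9.09, 12.1 and 7.71 at chr4:140702659-140702853, 1186 bp inside the gene from its start. A second 14 h only peak lay on the Rcc2 start itself, at chr4:140701326-140701552, with a fold of 6.74 in replicate 2 alone. The gene thus had a pair of separate 14 h only regions, and the nearest 34 h peak was 357769 bp from the inner one and 359070 bp from that at the start.

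The other regions inside genes were weaker and more even. Cntln (centlein, a centriole protein) had folds of 7.29, 6.93 and 7.25 at chr4:84884262-84884487, over an annotated inner start 2475 bp from the gene boundary. Atn1 (atrophin-1, a transcriptional corepressor) had 6.80, 7.12 and 8.57 at chr6:124745564-124745796, 3020 bp from the nearer boundary. Plec (plectin, which links intermediate filaments to junctions and to the Z-discs of muscle) had 6.60, 8.64 and 8.56 at chr15:76189849-76190085, 18875 bp inside the gene. None of the 3 had a fold above 8.64 in any library, so they lie at the low end of the 8, as the plot of their folds shows.

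The region outside genes, chr1:88745373-88745640, had the highest fold of any 14 h only peak, 14.9 on 38 fragments in replicate 2, with 7.13 in replicate 1 and 11.0 in replicate 3. It lies 43182 bp from Arl4c on one side and 324693 bp from Sh3bp4 on the other, and the nearest 34 h peak, of fold 4.87, was 42939 bp away. Summits of the 3 libraries lay within 10 bp of each other there. Over the 8 regions the summits spread over a median of 34.5 bp and at most 62 bp, so the libraries called the same positions.

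**Figure D2:**
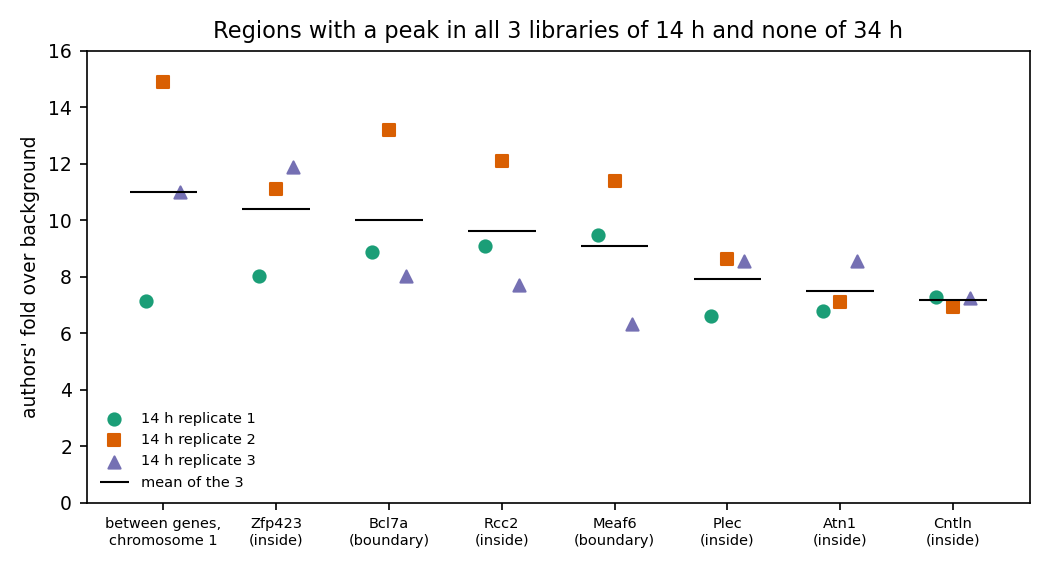
The authors' fold over local background (y axis) in each 14 h library for the 8 regions called in every 14 h library and no 34 h library (x axis, with the place relative to genes). The line is the mean of the 3 libraries, from 11.0 for the region between genes to 7.16 for Cntln; replicate 2 is highest in 5 of the 8.

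The 39 regions of 2 libraries had a median fold of 6.62 (range 4.49 to 12.4) on a median of 16 fragments, between those of 1 library (6.25, range 2.00 to 12.3, on 14.5 fragments) and of 3 libraries (8.56, range 6.34 to 14.9, on 19 fragments). Of the 12 with the highest lowest fold, 9 lay at a gene boundary. Lsm8, part of the ring that binds U6 snRNA in the spliceosome, had folds of 9.50 and 9.88 in replicates 2 and 3. The region that overlaps both Csnk2b, the regulatory subunit of casein kinase 2, and Gpank1 had 12.4 and 8.59 in the same replicates. Eefsec, the elongation factor that brings selenocysteine to the ribosome, had 7.02 and 8.29, and Mrps26, a protein of the small mitochondrial ribosomal subunit, had 7.33 and 6.63. All 4 were called in replicates 2 and 3 and not in replicate 1.

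Rnaseh2c, a subunit of the RNase H2 enzyme that removes RNA from DNA, had folds of 8.07 and 6.48 in replicates 2 and 3, and Hus1, part of the 9-1-1 DNA damage clamp, had 6.42 and 6.72. Fads2, a fatty acid desaturase, had 8.41 and 7.55, and the boundary shared by Hccs, which attaches haem to cytochrome c, and Gm15246 had 9.50 and 6.88. Klf11, a Krüppel-like factor of the TGF-beta response, was called in replicates 1 and 3 with 6.51 and 6.72, and a separate region near it (chr12:24651723-24651891) had a fold of 5.97 in 1 library. The last 3 of the 12 were not at a boundary. Rsbn1 had 7.92 and 9.58 in replicates 1 and 2 inside the gene, 694 bp from a 34 h peak of fold 7.42. Sbk1, a kinase gene, had 6.78 and 7.71 in replicates 2 and 3, and chr2:25167915-25168151, 12607 bp from Nrarp, had 6.95 and 8.23 in replicates 1 and 2.

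The other 27 regions of 2 libraries had a lowest fold of 4.49 to 6.35. Among them, Ttll4, a tubulin ligase gene, had folds of 11.0 and 6.35 in replicates 2 and 3, and the boundary shared by Ewsr1, an RNA-binding protein gene, and Rhbdd3 had 8.65 and 6.35. Cxcr4, the chemokine receptor, had 5.05 and 8.53 in replicates 1 and 2. Inside genes lay Nasp, a histone chaperone, with 6.18 and 9.09 in replicates 1 and 3, and Mapt (tau) with 6.61 and 5.30 in replicates 2 and 3. The Nasp region was 1050 bp from a 34 h peak of fold 4.10, and that of Mapt was 264234 bp from one. Smpd4, a sphingomyelinase gene, had the lowest mean fold of the 39, from 4.59 and 4.70 in replicates 1 and 2, and did not meet the rule when peaks of −log10 q under 5 were left out.

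Regions of 1 library were led in replicate 2 by Atp5j2, a subunit of the mitochondrial ATP synthase, with a fold of 12.3, then by Tm7sf2/Vps51 with 10.4, and Ublcp1 had 9.54. In replicate 1 the highest were Itgav, the integrin alpha V subunit, with 7.77, Tada2b/Ccdc96 with 7.76, and Foxn4 and Cmc1, both with 7.49. In replicate 3 they were Paqr4/Kremen2 with 8.53, Efna5 with 7.99, Mrpl41/Pnpla7 with 7.65 and Gnb1l with 7.48. A peak in 1 library has no replicate behind it.

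The rule itself forbids overlap with a 34 h peak, so the gap to the nearest one is given as a description. It was not compared with that of other positions. The median gap was 63086 bp, 221 of 257 (86.0%) lay over 10 kb away, and 22 (8.56%) lay within 1 kb, 17 of 1 library and 5 of 2. Those 5 were at Rsbn1, Diaph3, Nfyc, Chrac1 and Zfat. Diaph3, a formin that builds actin filaments, lay 326 bp from a 34 h peak of fold 18.6, and its own gene also had a region of both times. Nfyc, which encodes a subunit of NF-Y, lay 198 bp from a 34 h peak of fold 7.57.

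At the edge of the rule, the members closest to a 34 h peak were Prr11/Ska2, 22 bp from one of fold 13.3, 9130401M01Rik at 38 bp, Agfg2 at 45 bp, Dtl/Ints7 at 117 bp and the chromosome 9 region of fold 2.00 at 141 bp. Just outside it, the regions of smallest overlap between 14 h and 34 h peaks were Rnf126 with 17 bp, Fbxl14 with 26 bp, chr7:144941426-144941733 with 43 bp, Tdrd3 with 45 bp and Rps19 with 48 bp. The highest folds of the 14 h peaks were 7.05, 4.41, 9.38, 5.49 and 2.00 inside the rule and 7.16, 4.99, 6.23, 7.17 and 5.41 outside it. The values outside thus lay within the wider range of those inside.

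Position relative to genes was not used by the rule. Of the 257 regions, 194 (75.5%, exact 95% interval 69.8 to 80.6%) lay within 1 kb of a protein-coding gene's boundary, at either end, 45 lay deeper inside a gene and 18 outside genes, and 184 lay within 1 kb of an annotated start. The table of starts held 17492 of the 21887 protein-coding genes and none on chromosome 18, so 184 can only be too low. A boundary of a second gene lay within 1 kb of 42 of the 257 regions (16.3%). The classes differed in count: 163 of 210 regions of 1 library (77.6%), 29 of 39 of 2 libraries (74.4%) and 2 of 8 of 3 libraries (25%, interval 3.19 to 65.1%) lay at a boundary. Regions of both times with peaks in all 3 libraries of 14 h and a lowest fold between 6.34 and 8.03, the range of the 8, lay there in 106 of 119 cases (89.1%). Regions are not replicates, so this contrast was not tested, and the intervals cover counting error only.

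By library, 57.1%, 75.1% and 68.4% of 14 h only peaks had their summit at a boundary, against 78.7%, 80.9% and 81.4% of peaks of both times in the same libraries. The share was lower for 14 h only peaks in 3 of 3 libraries, with a mean difference of −13.5 percentage points (66.9 ± 9.08% against 80.4 ± 1.45%, SD, n = 3; exact paired permutation test over libraries, two-sided p = 0.25, the smallest 3 libraries allow). Fold differs between the classes, so the shares were also read within ranges of fold, pooled over libraries. For 14 h only peaks they were 74.2% at a fold of 5 to 6, 70.8% at 6 to 7, 67.9% at 7 to 8 and 70.6% at 8 to 10, against 86.0%, 84.8%, 81.0% and 86.9% for peaks of both times. Below a fold of 5 the order turned, with 16 of the 19 peaks of 14 h only (84.2%) and 45 of 289 peaks of both times (15.6%) at a boundary. The difference was smaller without 34 h replicate 2 (−4.11 points), with lists of equal length (−4.24) and with annotated starts in place of either boundary (−4.44), where not every library was lower.

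Against the mirror set the order was the other way. The 57.1%, 75.1% and 68.4% of 14 h only peaks at a boundary stood against 50.7%, 45.7% and 56.6% of 34 h only peaks in replicates 1, 2 and 3 of that time. The groups did not overlap, but the lowest of the first and the highest of the second lay 57.1% against 56.6%. The mean share of 14 h only peaks was 15.9 percentage points higher (66.9 ± 9.08% against 51.0 ± 5.43%, SD, n = 3 each; exact permutation test, two-sided p = 0.100, the smallest that 3 against 3 allows). Without 14 h replicate 2 the difference was 9.37 points and the groups overlapped (exact permutation p = 0.30), as they did with a window of 0.5 kb or with all annotated genes (exact p = 0.200 each). With lists of equal length it was 26.0 points. Among regions of 3 libraries, 25% of 14 h only regions lay at a boundary, against 55.8% of the 258 of 34 h only, so the order over peaks was not that of these few regions.

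**Figure D3:**
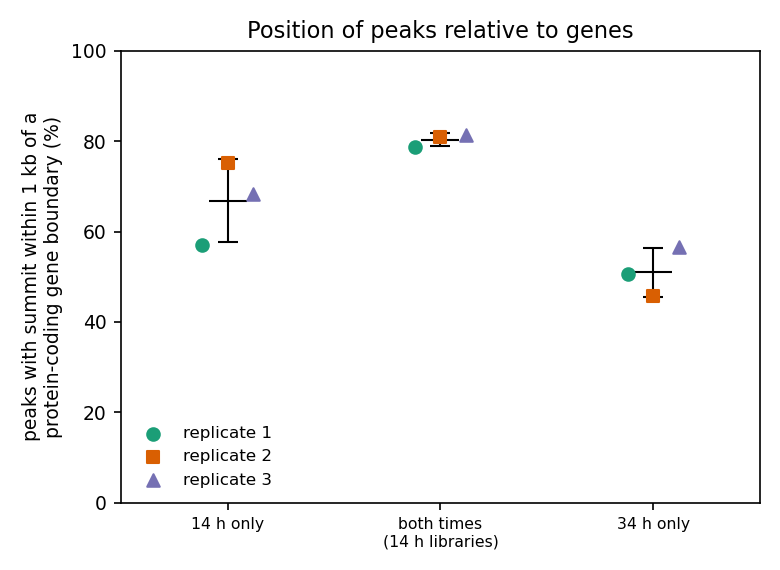
Percent of peaks with a summit within 1 kb of a protein-coding gene boundary (y axis), for peaks of 14 h only, of both times in the 14 h libraries, and of 34 h only; points are libraries, the bar is the mean with its SD. Every 14 h only value lies below the both-times value of its library (57.1% against 78.7% in replicate 1) and above the highest 34 h only value, 56.6%.

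A 14 h only region lay within 1 kb of a boundary of 235 protein-coding genes, 1.07% of 21887, and 224 of these genes had no region of both times at a boundary. Any 14 h region lay at a boundary of 1378 genes (6.30%), and 17.1% of these 1378 had a 14 h only one. The counts of the gene lists are to be read against these shares. Cell cycle and DNA replication genes, nearly all of which carried APOBEC2 peaks at 14 h (70 of 76), had a 14 h only region at 5, or 7.14% of the 70 against 17.1% over all genes with a 14 h region: Ccne2 (cyclin E2), E2f2, Mcm2 (replicative helicase), Tyms (thymidylate synthase) and Rcc2. The folds of these peaks, each in 1 library, were 6.12, 6.78, 6.28, 6.20 and 6.74, close to the median of 6.41 over all 14 h only peaks, and the other 65 genes with a 14 h region held a 34 h peak there too. Of 63 replication-dependent histone genes, 24 had a 14 h region and 0 a 14 h only one.

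The chromatin lists had 1 or 2 genes each with a 14 h only region at a boundary. Among 28 BAF and PBAF genes, 2 of the 3 with a 14 h region were 14 h only (Bcl7a, and Smarcd2 with a fold of 6.49 in 1 library). Meaf6 was 1 of 3 among 29 acetyltransferase genes. Among 55 Polycomb, methyltransferase and demethylase genes, 2 of the 12 with a 14 h region had a 14 h only one, a share near the 17.1% over all such genes. These were Kmt2b, an H3K4 methyltransferase, with a fold of 7.27, and Suv39h2, an H3K9 methyltransferase, with 4.41. The Suv39h2 peak was 293 bp from a 34 h peak, and that gene also had a region of both times. The BAF and acetyltransferase counts, on 3 genes each, are too small to be set against the 17.1%. Hdac10, a deacetylase, had 1 of fold 6.60 shared with Tubgcp6, a protein of the gamma-tubulin ring complex, whose gene lies beside it.

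Signalling and transcription factor lists had few genes or none with a 14 h only region. Klf11 and Klf16 (fold 5.71) were 2 of the 5 SP and KLF genes with a 14 h region, again few genes to set beside the 17.1%. Smurf1, a ubiquitin ligase of SMAD proteins, was the only gene of the TGF-beta and BMP list with a 14 h region at a boundary, and it was 14 h only with a fold of 5.17. The Notch and Myc lists each had 2 genes with a 14 h region and 0 with a 14 h only one, and the immediate early list likewise 2 and 0. On 2 genes each, a count of 0 is also too small to be set against the 17.1%. The Wnt and Hippo, circadian clock, extracellular matrix and olfactory receptor lists had no 14 h region at a boundary at all. Among 397 zinc finger genes named Zfp, 5 had a 14 h only region at a boundary (1.26%), each in 1 library, and Zfp13 had 1 of 2 libraries inside the gene with folds of 7.70 and 5.73.

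The muscle lists held none of the regions, at sizes where the share of 1.07% over all genes would give fewer than 1 gene each. Of 60 sarcomere and contraction genes 1, and of 29 myogenic factors and partners 3, had a 14 h region, and 0 of either list a 14 h only one. Structural genes with 14 h only peaks were Actn4 (alpha-actinin 4, fold 6.42 in 1 library) and Diaph3 (5.85 and 6.59) at a boundary, beside Plec and Itgav inside. Of the 85 ribosomal protein genes 5 had a 14 h region and 0 a 14 h only one, while the translation factors had Eif4a3, the helicase of the exon junction complex, with folds of 5.88 and 7.20, and Eif4h with 6.90. The p53 and apoptosis list had Rbl2, the pocket protein p130, with 6.17 and 6.02 in replicates 2 and 3. Other lists had Celf1 (5.85) and Hnrnpdl (6.38) for splicing, Poc1b (5.49, beside a region of both times) for centrioles and Atp5j2 for oxidative phosphorylation.

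The promoters under these regions were CpG-rich. RefSeq's promoter table gives 250 bases before and 50 after each gene's start, and 176 windows of 166 genes overlapped a 14 h only peak and no peak of the other classes. Their median GC content was 66.7%, against 62.7% for windows under regions of both times, 62.0% for 34 h only and 52.7% for all 32851 windows, and 94.3% of them had an observed-to-expected CpG ratio above 0.6, against 93.7% for both times, 89.3% for 34 h only and 35.8% of all. A TATA box (TATAAA) was in 1.70% of them, against 4.36% for both times, 6.22% for 34 h only and 13.6% of all windows. A GC box (GGGCGG) was in 80.7%, against 75.5%, 72.6% and 35.7%. Most of the distance from all windows was thus common to the 3 classes of peaks. Matches of letters describe the sequence and are not binding sites shown by these data.

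E2F letters had a share under 14 h only regions near that of regions of both times and above that of 34 h only regions. They were in 28.4% of the 176 windows, against 25.8% of those of both times, 9.48% of those of 34 h only and 4.60% of all. By library the share was 32.0%, 29.3% and 30.3% for 14 h only peaks, on 25, 150 and 33 windows, against 9.41%, 9.40% and 13.2% for 34 h only peaks. The groups did not overlap, and the difference was 19.9 percentage points (30.5 ± 1.35% against 10.7 ± 2.2%, SD, n = 3 each; exact permutation test, two-sided p = 0.100, the smallest possible, and 0.225 after Benjamini-Hochberg adjustment over the 9 motifs). Against peaks of both times in the same libraries (27.3 ± 1.97%) the difference was 3.20 points, with 3 of 3 libraries higher (exact paired p = 0.25, adjusted 0.450).

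The order against 34 h only held in 4 ranges of GC content. At 50 to 60% GC, E2F letters were in 36.4% of windows of 14 h only and 8.26% of windows of 34 h only, at 60 to 65% in 36.7% and 9.54%, at 65 to 70% in 26.5% and 11.5%, and at 70 to 80% in 26.5% and 11.1%. Windows of both times had 23.6%, 23.0%, 28.9% and 34.0% in these ranges, so 14 h only was higher below 65% GC and lower above it. Over all GC contents, the difference by library from 34 h only was 14.5 points with lists of equal length. In 16 of the 50 windows of 14 h only with E2F letters the match overlapped a GC box, against 346 of 1511 over all windows. In windows of 2 libraries the letters were in 10 of 26 (38.5%), in windows of 1 library in 39 of 147 (26.5%), and in windows of 3 libraries in 1 of 3.

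CCAAT letters went the other way. They were in 40.3% of the windows of 14 h only, against 56.0% of those of both times, 53.1% of those of 34 h only and 37.4% of all. By library they were in 32.0%, 40.7% and 27.3% of windows of 14 h only peaks, against 57.4%, 54.7% and 66.0% for 34 h only peaks, again with no overlap (mean 33.3 ± 6.79% against 59.4 ± 5.92%, SD, n = 3 each; difference −26.1 points, exact permutation p = 0.100, adjusted 0.225). Within the 14 h libraries they were also lower than the 56.6 ± 0.399% of peaks of both times in 3 of 3 libraries (−23.2 points, exact paired p = 0.25, adjusted 0.450). GC content moves with this result: at 70 to 80% GC the shares were 38.8% for 14 h only and 37.3% for 34 h only, and at 65 to 70% they were 53.1% and 48.0%. At 50 to 60% they were 45.5% and 62.2%, and at 60 to 65% they were 26.7% and 56.0%, so of these ranges only those below 65% GC had the lower share. The part of GC content in the pooled difference was not tested.

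CHR letters, found at promoters of late cell cycle genes, were in 10.5 ± 5.84% of windows of 14 h only peaks, against 26.3 ± 2.67% for peaks of both times in the same libraries (−15.8 points, lower in 3 of 3, exact paired p = 0.25, adjusted 0.450) and 9.35 ± 0.930% for 34 h only peaks (exact permutation p = 0.800, adjusted 1.00). The share in windows of 14 h only was 4.00%, 15.3% and 12.1% in replicates 1, 2 and 3, the first being 1 of 25 windows. Pooled, it was 13.6%, against 22.2% for both times and 9.53% for 34 h only, and in windows of 2 or 3 libraries of 14 h only it was 20.7%. Of the other 6 motifs, the half-site TGCGCA of NRF1 was in 28.1 ± 9.20% of windows of 14 h only peaks and 13.9 ± 0.848% of those of 34 h only (exact p = 0.100, adjusted 0.225). The libraries of 14 h only gave 36%, 18% and 30.3%, with the lowest on the most windows (150), and pooled shares were closer, 19.3% against 15.4%, with 18.2% for both times. TATAAA was in 1.78 ± 2.04% and 6.29 ± 0.451% (exact p = 0.100, adjusted 0.225). The 4 that remained (the GC box, CCGGAAG of ETS factors, and the E-boxes CACGTG and CAGCTG) gave adjusted p-values of 0.360 to 1.00 in the exact permutation test against 34 h only.

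**Figure D4:**
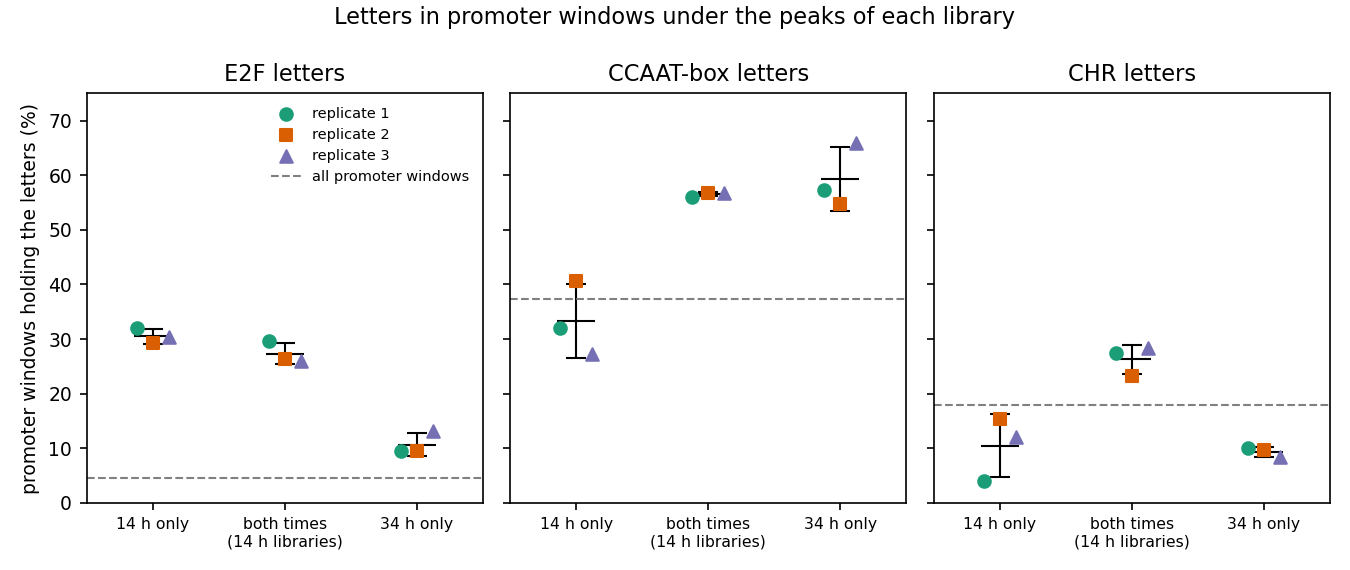
Percent of promoter windows holding the letters of E2F, the CCAAT box and the CHR (y axis, 1 panel each) under the peaks of each library, for peaks of 14 h only, of both times in the 14 h libraries, and of 34 h only; points are libraries, the bar is the mean with its SD, and the dashed line is the share over all promoter windows. E2F letters stand near 30% for 14 h only (30.5%) and at 10.7% for 34 h only, while CCAAT letters stand at 33.3% and 59.4%.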

How the data were processed

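Lists of peaks and summits were used for 3 libraries of each time, 6 in all, and the 2 inputs served only as the caller's background. Subread and MACS2 were used on mm10, per the submitters' processing notes. The names of the deposited lists pair each library with its own time's input. Tool versions and thresholds of the authors' calling are not given in the sources used. The deposited fold is a ratio to local background, and further deposited columns hold −log10 p-values, −log10 q-values and an integer score. The lowest −log10 q in a list was 1.58 to 2.90, so each list had its own end. No read totals are given. Fragments at a summit (at least 10) and their background were solved from fold and p for 100% of peaks, to within 0.001 on the −log10 scale.

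Peaks were merged and classed with Python 3.11.15, pandas 2.3.3 and scipy 1.17.1. The scripts were tested on simulated data. Genes came from RefSeq's table for GRCm38.p6, whose primary assembly is mm10. Starts came from its promoter table, which held 17492 of the 21887 protein-coding genes and none of those on chromosome 18. Exons were not used here. Members, gene lists and motifs were chosen with earlier results of these data known. Named were all regions of 3 libraries, the 12 of 2 libraries with the highest lowest fold, the 4 of highest fold per library, those at a gene of the 25 lists (up to 5 of 1 library per list) and the 5 nearest each side of the rule; a few of these are not reported here. Other named regions of 2 libraries, those printed for their letters included, were chosen after their values were seen. Motif shares and starts in place of boundaries were added after the data were seen. Alternatives covered stricter q, equal list lengths, overlap rules, windows and leaving out each library.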

Additional observations from a re-analysis of the deposited data

Results flagged for a closer look

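The mitochondrial chromosome, which the rule leaves out, held 13 peaks at 14 h (3, 7 and 3 in replicates 1, 2 and 3) and 7, 6 and 16 in those of 34 h, in 6 merged regions of which 0 were of 14 h only.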

How the results depend on the processing

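Lists of equal length raised the regions of all 3 libraries to 61, against the 8 reported. Leaving out 1 library in turn moved the number of 14 h only regions between 90 (without 14 h replicate 2) and 528 (without 34 h replicate 2), with 10 to 42 in all 3 libraries when a 34 h library was left out, and the share at a boundary between 67.8% and 79.5%. That share was 68.5% with the narrower window of 0.5 kb and 82.5% with that of 2 kb. The other 11 alternatives for the number of regions gave counts within 1.5 times of 257. The 2 differences in boundary share and those in E2F and CCAAT letters kept their sign in each alternative run. The groups behind the boundary difference from 34 h only overlapped in 3 of these: without 14 h replicate 2 (exact p = 0.30), with the 0.5 kb window and with all annotated genes (0.200 each). The boundary difference from peaks of both times ranged from −4.11 to −16.8 when 1 library was left out, and was −7.12 with the 2 kb window. Genes with a 14 h only region numbered 286 when regions inside genes were counted, against 235. The cause of these shifts was not tested.

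With the replicate block, the paired differences from 34 h only peaks were 15.9 points at boundaries, 19.9 for E2F and −26.1 for CCAAT letters (exact p = 0.25 each, the smallest possible). The shared numbers are no shown pairing: over 428 regions in all 6 libraries, deviations in log2 fold of same-numbered libraries correlated at 0.0455, 0.260 and 0.0825. Pairs of unlike number ranged from −0.194 to 0.124. The same-numbered library was the best match for 14 h replicates 2 and 3, but 14 h replicate 1 correlated best with 34 h replicate 3 (0.124). Depth limits the rest: 14 h only peaks stood on medians of 13 to 15 fragments, so a site just under a list's threshold at 34 h could not be told from one without signal.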

Other observations

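By chromosome, 14 h only regions made up between 5.97% (4 of 67 on chromosome 13) and 29.5% (13 of 44 on chromosome 19) of regions with a 14 h peak. Besides protein-coding genes, 41 lncRNA genes, 3 miRNA genes, 2 snRNA genes and 1 tRNA gene lay within 1 kb of a 14 h only region.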
